A study of Homo sapiens with 3 samples.

Results

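The 46 genes described here are interferon-stimulated genes (ISGs), and they were selected by gene symbol as type I interferon-induced effectors, RNA sensors, STATs and IRFs. All 46 were found among the 58381 genes of the count table, and all 46 had at least 10 counts in at least 1 library, as did 20527 genes of the table. RNA-seq had been performed on T24 cells, a human bladder urothelial carcinoma line, in 3 conditions with 1 library each. In Ctrl, cells carried an empty pLKO.1 lentiviral vector and were not irradiated. In RT, control cells were exposed to 10 Gy from a 137Cs source. In RT + shHDAC6, cells carrying a lentiviral shRNA against HDAC6, a cytoplasmic deacetylase that acts on tubulin, received the same dose. All cells had been infected and selected with puromycin according to the labels, whereas the study also calls the comparator parental cells. There was no library of unirradiated shHDAC6 cells, so an effect of the shRNA alone and its effect under radiation cannot be told apart. The time between irradiation and RNA extraction is not given in the sources used here.

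Counts are given throughout in the order Ctrl, RT and RT + shHDAC6. The library totals were 41811165, 35959265 and 35424086. The 46 ISGs took 45775, 36521 and 32414 of them, or 0.109%, 0.102% and 0.0915%. HDAC6 itself had 3098, 2383 and 2170 counts, and with the shRNA its scaled level was 87.2% of the RT level (log2 ratio -0.20, 95% limits -0.28 to -0.11). The targeted gene thus differed little between the 2 irradiated libraries at the RNA level. The study itself reports lower HDAC6 mRNA by qPCR and lower HDAC6 protein by Western blotting in its shHDAC6 T24 cells. The RNA held keratin and vimentin transcripts (KRT18 had 7336 to 9048 counts and VIM 74147 to 121716), while the 4 uroplakins, which mark differentiated urothelium, summed to 21, 6 and 6 counts. Log2 ratios were computed on counts after TMM scaling, and each is given with the lower and upper limits of its 95% Clopper-Pearson interval, which covers counting error only. With 1 library per condition there is no replicate check and no p-value, and the spread between cultures is not known. A gene was called higher or lower when it differed at least 2-fold and its interval excluded 0.

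Type I and III interferons bind receptors that activate the kinases JAK1 and TYK2. These phosphorylate STAT proteins, STAT2 among them, which join IRF9 and bind the interferon-stimulated response element (ISRE) near the start of their target genes. The products sense viral RNA, block translation and membrane fusion, tag proteins with ISG15 and recruit T cells. In irradiated tumour cells, DNA in the cytoplasm can start the same programme through cGAS and STING. Interferon gamma acts through STAT dimers on a different element, the gamma-activated site (GAS), and the guanylate-binding proteins are known for their response to it.

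The ISRE is the sequence feature that most members shared. Promoter windows of 300 bases, from 250 before to 50 after each start, were taken from the RefSeq annotation of GRCh38.p14, and 36 of the 46 genes had one or more (46 windows in all). IFIT2, MX2, OAS2, OASL, IFITM2, DHX58, IRF7, USP18, TRIM22 and GBP2 had none in the table used. The ISRE core was searched on both strands as GAAA, any 2 bases and GAAA. It was present in 29 of the 46 windows (63.0%), against 3.57% of 35116 windows of all genes. Windows with 2 or more cores made up 32.6% of those of the ISGs and 0.259% of all. The GAS, searched as TTC, any 3 bases and GAA, was present in 26.1% of ISG windows and 7.66% of all. The motifs may overlap in position, and each was counted on its own. The stretches below, each the 160 bases up to the base before the RefSeq start, belong to the 5 ISGs that had a window and were called in at least 1 comparison (GBP1, GBP3, SAMD9, IFIT1 and IFITM1), to IFITM3 beside its paralog IFITM1, and to IFI6, which had 3 cores. They are written 5′ to 3′ on the strand of the gene, with ISRE cores on either strand in capitals. The annotated models of some of these genes begin further upstream than the RefSeq start.
GBP1, chr1:89065209-89065368, minus strand: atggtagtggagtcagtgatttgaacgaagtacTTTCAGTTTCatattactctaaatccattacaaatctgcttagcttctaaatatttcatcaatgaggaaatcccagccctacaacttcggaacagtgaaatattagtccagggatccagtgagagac
GBP3, chr1:89022867-89023026, minus strand: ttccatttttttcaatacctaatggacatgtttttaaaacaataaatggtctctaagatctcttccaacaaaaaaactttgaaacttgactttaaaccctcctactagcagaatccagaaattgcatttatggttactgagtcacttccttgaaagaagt
SAMD9, chr7:93117980-93118139, minus strand: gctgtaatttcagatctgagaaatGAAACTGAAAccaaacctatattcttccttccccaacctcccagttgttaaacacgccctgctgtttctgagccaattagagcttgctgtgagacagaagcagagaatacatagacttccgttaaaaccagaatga
IFIT1, chr10:89392463-89392622, plus strand: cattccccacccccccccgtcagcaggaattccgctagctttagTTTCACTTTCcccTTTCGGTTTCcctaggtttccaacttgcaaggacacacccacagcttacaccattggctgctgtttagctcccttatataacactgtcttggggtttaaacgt
IFITM1, chr11:313880-314039, plus strand: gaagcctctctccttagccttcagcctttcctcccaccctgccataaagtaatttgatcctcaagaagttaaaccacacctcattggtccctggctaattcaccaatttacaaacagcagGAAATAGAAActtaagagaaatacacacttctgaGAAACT
IFITM3, chr11:320861-321020, minus strand: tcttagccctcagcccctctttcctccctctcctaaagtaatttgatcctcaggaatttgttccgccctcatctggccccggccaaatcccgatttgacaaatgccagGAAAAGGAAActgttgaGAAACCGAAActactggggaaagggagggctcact
IFI6, chr1:27672193-27672352, minus strand: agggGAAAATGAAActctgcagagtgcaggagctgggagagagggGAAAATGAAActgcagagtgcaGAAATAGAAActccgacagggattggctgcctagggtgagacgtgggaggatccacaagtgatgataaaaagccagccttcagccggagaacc

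IFI6 had 3 cores in its window, beginning 156, 115 and 93 bases before the start. HERC5, IFIH1 and IFIT5, whose stretches are not shown, had 3 cores as well. IFIT1 had 2, beginning 116 and 103 bases before the start, and IFITM3 had 2 as well. GBP1 and SAMD9 had 1 core each, which began 127 and 136 bases before the start. The second core of IFITM1 ran past the start, and the core of GBP3 lay past it, so that the stretch of GBP3 has no capitals. Genes above and below 0 were found both with and without a core. The 25 ISGs with a core and the 11 without had median log2 ratios of -0.14 and -0.30 for RT against Ctrl. For RT + shHDAC6 against RT, the medians were -0.16 and -0.022, and 9 of the 25 and 5 of the 11 lay above 0.

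Levels per length were compared between genes as TPM, that is, counts per kilobase of merged exons scaled to the same total per library. The median ISG had 9.23, 5.83 and 4.41 TPM in the 3 libraries. At least 1 TPM was reached by 44, 36 and 37 of the 46. TPM values were not scaled by TMM, so these series do not measure how the ISGs differed between libraries. In Ctrl the range was from 0.622 TPM for MX2, a GTPase that blocks nuclear import of viral genomes, to 76.1 TPM for EIF2AK2, which encodes the RNA-activated kinase PKR. IFITM3 (68.3 TPM) and IFI6 (66.6 TPM), a membrane protein of the endoplasmic reticulum and mitochondria, came next in Ctrl. In RT, IFI6 ranked first at 89.0 TPM. In RT + shHDAC6, IFITM2 ranked first at 84.4 TPM, after rank 5 in Ctrl and rank 10 in RT. Among the lowest were the antiviral genes MX1, RSAD2 and OAS1, with 1.74, 1.31 and 1.09 TPM in Ctrl. As an example of the missing TMM scaling, EIF2AK2 had 76.1 TPM in Ctrl and 59.7 TPM in RT. Its TMM-scaled log2 ratio for RT against Ctrl was -0.03.

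**Figure D1:**
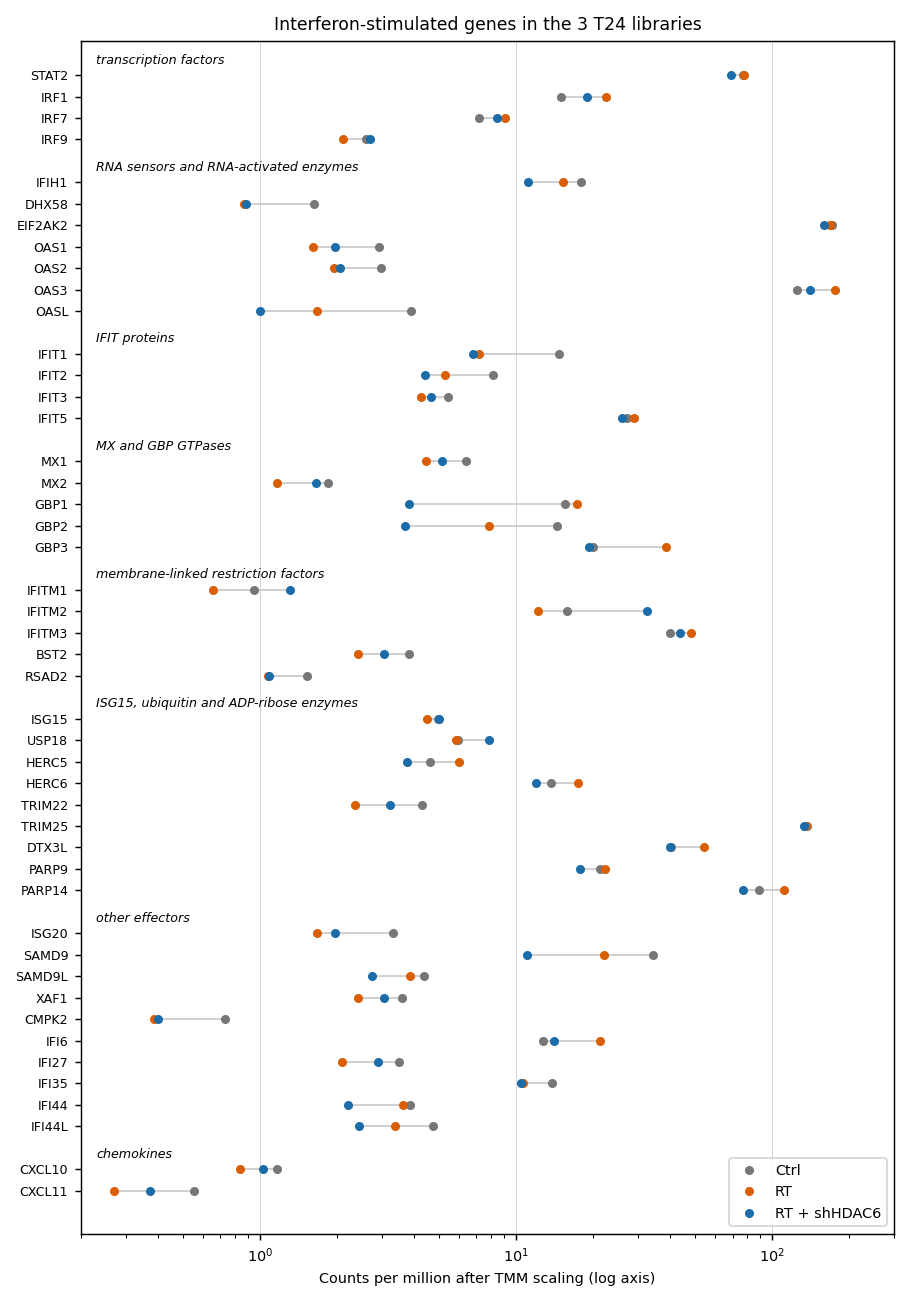
Levels of the 46 ISGs in CPM, counts scaled by TMM to a common library total (log axis), 1 point per library and gene, grouped by role. In the rows of GBP1 and GBP2 the RT + shHDAC6 point lies left of the other 2 points (at 3.83 and 3.68 CPM), and in the row of IFITM2 it lies right of them (at 32.3 CPM).

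RT against Ctrl asks how the ISGs stood in irradiated cells. None of the 46 was called higher (4.15% of all 20527 genes tested were), and 2 were called lower, IFIT1 and OASL (4.35% of the ISGs, against 6.07% of all genes). The median log2 ratio of the ISGs was -0.36, and that of all genes tested was -0.06. Of the 46, 14 lay above 0 and 32 below, and the counting interval excluded 0 for 11 of the former and 20 of the latter. Of all 20527 genes tested, 9436 lay above 0 and 11091 below, with intervals excluding 0 for 6030 and 5713. At a 1.5-fold threshold, 2 ISGs were called higher (GBP3 and IFI6), or 4.35% against 12.1% of all genes. At that threshold 13 were called lower, or 28.3% against 12.8% of all genes. In bulk RNA, fewer cells that express a gene and less of its RNA per cell cannot be told apart.

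IFIT1 and OASL are antiviral effectors: IFIT1 binds viral RNA that lacks the methylated cap of host messages, and OASL is an OAS-like protein without synthetase activity. IFIT1 (ENSG00000185745) had 670, 241 and 237 counts in the 3 libraries. Its log2 ratio for RT against Ctrl was -1.04 (limits -1.26 to -0.83), a 2.06-fold lower level, and the 2 irradiated libraries differed by -0.09 (limits -0.35 to 0.18). OASL (ENSG00000135114, chromosome 12, 121017763 to 121039246) had 176, 56 and 35 counts, and its log2 ratio for RT against Ctrl was -1.22 (limits -1.68 to -0.78). The highest count of either gene was thus in Ctrl. With size factors from the median of ratios, IFIT1 was no longer called and GBP3 was called higher. With library totals alone 9 ISGs were called lower, and the share of all genes called under that scaling is not given here. That scaling placed the median of all genes at -0.28. The ISG median minus that of all genes was -0.30. A change of scaling shifts all log2 ratios alike, so it cannot alter this difference or test it. The sign of 7 ISGs for RT against Ctrl changed with the scaling: IFIT5, STAT2, USP18, PARP9, TRIM25, EIF2AK2 and GBP1.

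The other IFIT genes did not pass the 2-fold rule. IFIT2, a paralog that binds RNA, had 369, 177 and 155 counts in the 3 libraries, and its log2 ratio for RT against Ctrl was -0.62 (limits -0.89 to -0.36). Of the exon bases of IFIT2, 12.1% are shared on the same strand with another gene, so some reads could have been dropped by the counting. IFIT3 had 246, 143 and 163 counts. IFIT5 was the deepest of the 4 with 1234, 971 and 908 counts, and its log2 ratio of 0.09 had an interval from -0.03 to 0.21. IFIT1, IFIT2, IFIT3 and IFIT5 lie next to each other on chromosome 10, between 89283694 and 89421605, and their log2 ratios there spanned -1.04 to 0.09.

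Among the RNA sensors and RNA-activated enzymes, the OAS genes on chromosome 12 differed from each other. OAS3, which makes the oligoadenylates that activate RNase L, had 5646, 5913 and 4923 counts in the 3 libraries. Its log2 ratio for RT against Ctrl was 0.50 (limits 0.45 to 0.55), short of 2-fold. Its neighbours OAS1 and OAS2, of the same function, had 132 and 135 counts in Ctrl, 54 and 65 in RT, and 69 and 72 in RT + shHDAC6. Their log2 ratios were -0.85 (limits -1.34 to -0.39) and -0.62 (limits -1.07 to -0.18). EIF2AK2 had 7785, 5652 and 5589 counts and a log2 ratio of -0.03 (limits -0.08 to 0.02). IFIH1, which encodes the RNA sensor MDA5, had 815, 511 and 389 counts (log2 ratio -0.24, limits -0.40 to -0.08). DHX58, which encodes its regulator LGP2, had 74, 29 and 31 counts (log2 ratio -0.92, limits -1.59 to -0.28).

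The 4 transcription factors had log2 ratios from -0.30 to 0.58 for RT against Ctrl. STAT2, a subunit of the ISRE-binding complex, had 3487, 2602 and 2420 counts in the 3 libraries, a log2 ratio of 0.01 (limits -0.06 to 0.09). IRF1, an activator of ISGs that interferon gamma induces, had 679, 751 and 665 counts and the highest ratio of the 4, 0.58 (limits 0.43 to 0.73). IRF7, which drives interferon alpha genes, had a log2 ratio of 0.34 (limits 0.11 to 0.57). The ratio of IRF9, the DNA-binding subunit of the complex, had an interval across 0 (-0.74 to 0.14) on 118, 71 and 94 counts. Of the exon bases of IRF9, 23.9% are shared on the same strand with another gene, so some reads could have been dropped by the counting.

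The GTPases held both directions. GBP3, a guanylate-binding protein, had 909, 1292 and 673 counts in the 3 libraries, and with 0.94 (limits 0.82 to 1.07) it had the highest log2 ratio of the 46 for RT against Ctrl. GBP2 had 658, 263 and 129 counts and a log2 ratio of -0.89 (limits -1.10 to -0.68). GBP1 lay between them with 701 Ctrl and 580 RT counts, a log2 ratio of 0.16 (limits 0.00 to 0.32) that was below 0 with library totals. MX1 and MX2, dynamin-like GTPases, had log2 ratios of -0.53 (limits -0.82 to -0.24) and -0.67 (limits -1.26 to -0.11).

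Of the membrane-linked restriction factors, IFITM3, which hinders fusion of viruses with endosomes, had 1802, 1620 and 1523 counts in the 3 libraries, a log2 ratio of 0.28 (limits 0.18 to 0.38) for RT against Ctrl. The other 4 lay below 0, from -0.66 for BST2 (tetherin, which holds budding virions at the cell surface) to -0.38 for IFITM2. Of the 9 genes of ISG15, ubiquitin and ADP-ribose enzymes, 5 lay above 0 and 4 below. ISG15 had 225, 151 and 175 counts in the 3 libraries, and its interval crossed 0 (-0.45 to 0.16). DTX3L, a ubiquitin ligase that pairs with PARP9, had 1829, 1810 and 1401 counts (log2 ratio 0.42, limits 0.33 to 0.51). PARP14, a mono-ADP-ribosyltransferase, had 4019, 3725 and 2700 counts (log2 ratio 0.33, limits 0.26 to 0.39). TRIM25, the ubiquitin ligase that acts on RIG-I, had 6179, 4563 and 4670 counts and a log2 ratio of -0.00 (limits -0.06 to 0.05). TRIM22 was the lowest of the 9, at -0.87 (limits -1.26 to -0.48).

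Of the 10 other effectors, IFI6 lay above 0 for RT against Ctrl and 9 lay below. IFI6 had 578, 715 and 494 counts in the 3 libraries, a log2 ratio of 0.74 (limits 0.58 to 0.90). SAMD9, an antiviral factor that restrains growth, had 1554, 737 and 385 counts and a log2 ratio of -0.64 (limits -0.77 to -0.51). ISG20, an exonuclease, had 150, 56 and 69 counts and came close to the 2-fold threshold with -0.99 (limits -1.46 to -0.53). The chemokines CXCL10 and CXCL11, which attract T cells through CXCR3, had 53 and 25 counts in Ctrl, 28 and 9 in RT, and 36 and 13 in RT + shHDAC6. Neither difference was detectable at this depth, with intervals for RT against Ctrl of -1.20 to 0.20 and -2.32 to 0.11.

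**Figure D2:**
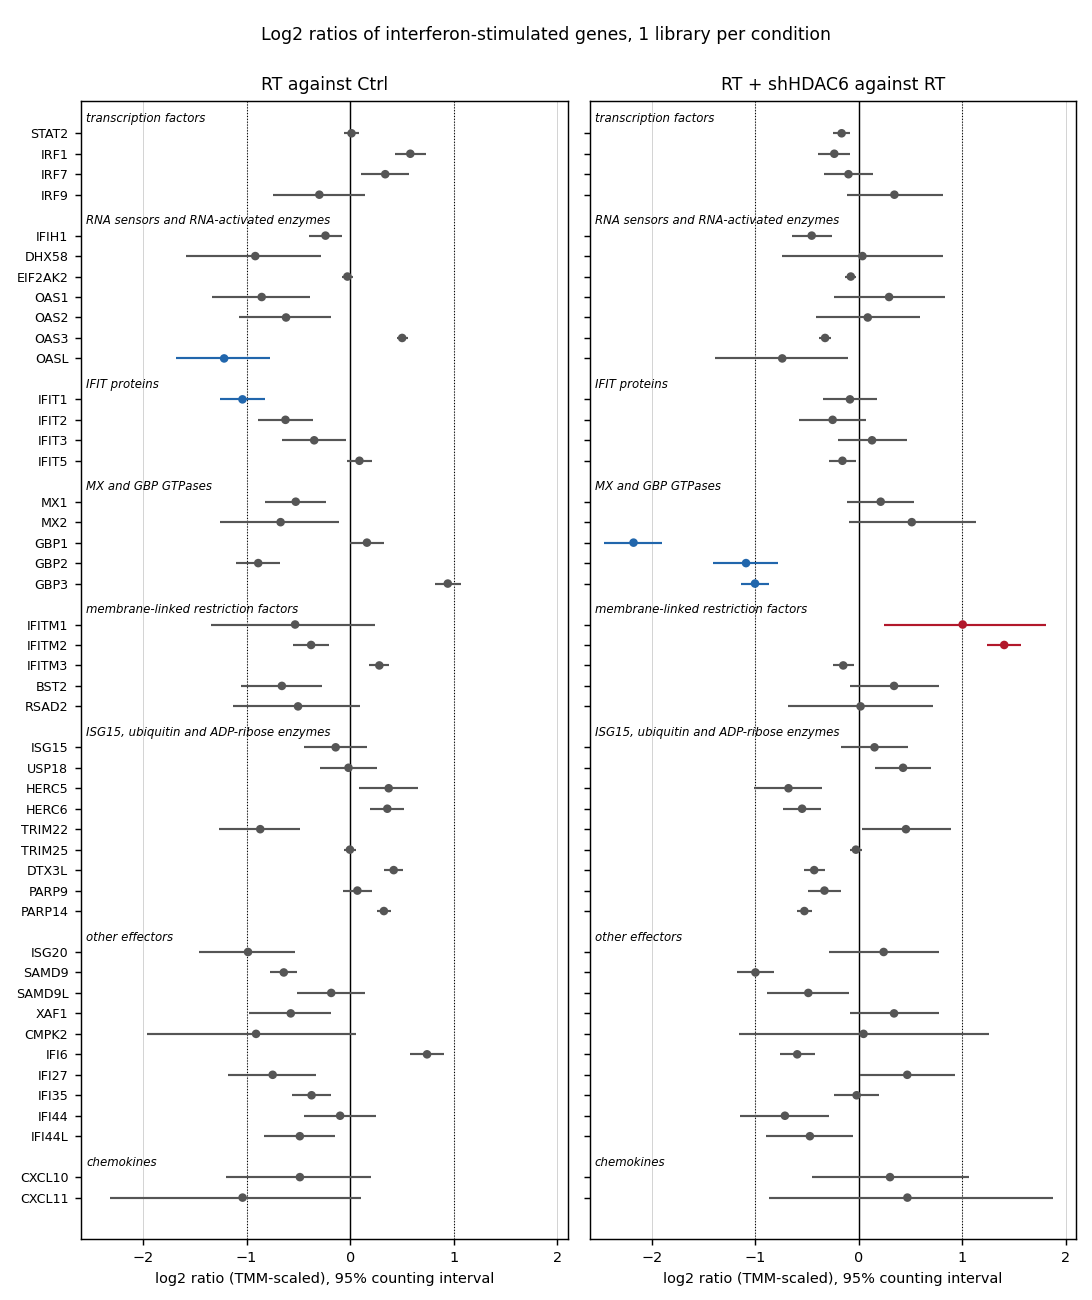
Log2 ratios of the 46 ISGs (points) with 95% counting intervals (bars) for RT against Ctrl and RT + shHDAC6 against RT, with red for genes called higher, blue for genes called lower, and dotted lines at a 2-fold difference. OASL and IFIT1 are the blue points on the left panel, and on the right GBP1 lies at -2.18 and IFITM2 at 1.40.

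RT + shHDAC6 against RT asks how the ISGs differed in irradiated cells with the shRNA against HDAC6. Of the 46, 3 were called lower, all of them guanylate-binding proteins (GBP1, GBP2 and GBP3), or 6.52% against 3.54% of all genes tested. IFITM1 and IFITM2 were called higher, or 4.35% against 2.58% of all genes. The median log2 ratio of the ISGs was -0.08 and that of all genes -0.01. With library totals only, these medians were 0.0015 and 0.077. The ISG median minus that of all genes was -0.075, a difference that no scaling can alter. With 20 ISGs above 0 and 26 below, the interval excluded 0 for 5 and 21. Of all 20527 genes tested, 10092 lay above 0 and 10435 below, with intervals excluding 0 for 3746 and 4670. At a 1.5-fold threshold, OASL, IFI6, IFI44, HERC5 and SAMD9 joined the 3 GBP genes, so that 8 were called lower (17.4%, against 6.22% of all genes). The same 2 genes were called higher at that threshold (4.35%, against 4.76% of all genes).

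GBP1, GBP2 and GBP3 encode large GTPases that coat pathogen-containing vacuoles and take part in inflammasome activation. GBP1 (ENSG00000117228) fell from 580 RT counts to 134 with the shRNA, a log2 ratio of -2.18 (limits -2.46 to -1.90), or a 4.52-fold lower level. Ctrl, with 701 counts, stood near RT and apart from RT + shHDAC6. GBP2 (ENSG00000162645) fell from 263 to 129 counts, a log2 ratio of -1.09 (limits -1.41 to -0.78), and was highest in Ctrl with 658. GBP3 (ENSG00000117226) fell from 1292 to 673 counts, a log2 ratio of -1.003 (limits -1.14 to -0.87) that lay just past the threshold, and was called neither with library totals nor with upper quartile scaling. The RT library enters both comparisons. The 3 genes thus shared a lower value in RT + shHDAC6 than in RT but not the order of Ctrl and RT, since RT lay above Ctrl for GBP3 (0.94), near it for GBP1 (0.16) and below it for GBP2 (-0.89).

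The GBP genes lie in a cluster on chromosome 1 between 89006679 and 89272860, and its other members with counts did not pass the rule for RT + shHDAC6 against RT. GBP4 had 68, 44 and 54 counts (log2 ratio for RT + shHDAC6 against RT 0.23, limits -0.37 to 0.84) and GBP5 had 94, 41 and 34 (log2 ratio -0.33, limits -1.03 to 0.36), though GBP5 was called lower for RT + shHDAC6 against Ctrl (-1.09, limits -1.70 to -0.51). Genes beside the cluster, listed after their values were seen, had log2 ratios for RT + shHDAC6 against RT of -0.23 for PKN2, -0.10 for GTF2B, 0.12 for KYAT3 and -0.44 for RBMXL1. Of the 31-base windows in the transcripts of GBP1, GBP2 and GBP3, 14.7%, 10.6% and 12.4% also occur in another gene, chiefly another GBP gene or pseudogene, so that some of their reads could have been split or dropped by the counting. Summed over the 3 genes, there were 2268, 2135 and 936 counts in the 3 libraries, and the log2 ratio of the sum for RT + shHDAC6 against RT was -1.25 (limits -1.36 to -1.14).

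IFITM2 (ENSG00000185201), an inhibitor of virus entry at endosomes, had 720, 410 and 1132 counts in the 3 libraries. It rose 2.64-fold over RT, a log2 ratio of 1.40 (limits 1.24 to 1.57). IFITM1 (ENSG00000185885), which acts at the plasma membrane, had 43, 22 and 46 counts and a log2 ratio of 1.002 (limits 0.24 to 1.81) for RT + shHDAC6 against RT. The call of IFITM1 rests on few counts and was lost with the median of ratios. For IFITM3, the gene beside IFITM1, the log2 ratio was -0.15 (limits -0.25 to -0.05). The 3 genes lie on chromosome 11 between 303655 and 329475 and share sequence. Of their 31-base windows, 26.2% for IFITM1, 28.8% for IFITM2 and 26.3% for IFITM3 occur in other genes, so that counts may have moved between them. The sum over the 3 genes was 2565, 2052 and 2701 counts, and its log2 ratio was 0.33 (limits 0.25 to 0.42) for RT + shHDAC6 against RT, below the 2-fold threshold. Of 6 neighbours of the IFITM genes, also listed after their values were seen, 5 lay above 0 for RT + shHDAC6 against RT with intervals that excluded 0. PKP3 had 624, 254 and 538 counts (log2 ratio 1.02, limits 0.80 to 1.24) and ANO9 had 41, 12 and 28 (log2 ratio 1.16, limits 0.14 to 2.27), and both passed the 2-fold rule. Among all 20527 genes tested, 3746 had an interval above 0 in that comparison, and 2.58% were called higher. SIGIRR had a log2 ratio of 0.55 (limits 0.27 to 0.83), B4GALNT4 of 0.71 (limits 0.05 to 1.40) and PGGHG of 0.40 (limits 0.29 to 0.51), while PSMD13 had -0.08 (limits -0.13 to -0.02). For RT against Ctrl, PKP3, ANO9, SIGIRR, B4GALNT4 and PGGHG had log2 ratios of -0.86, -1.34, -0.78, -0.99 and -0.34. For RT + shHDAC6 against Ctrl they had 0.16, -0.18, -0.23, -0.27 and 0.06 in the same order, whereas IFITM2 had 1.03.

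SAMD9 (ENSG00000205413, chromosome 7, 93099513 to 93118023) lay at the threshold without passing it. With 737 RT counts and 385 with the shRNA, its log2 ratio was -0.999 (limits -1.18 to -0.82), and the median of ratios called it lower. Its paralog SAMD9L, beside it on chromosome 7, had 129 and 96 counts (log2 ratio -0.49, limits -0.88 to -0.10). Of the windows of SAMD9, 0.0292% occur in another gene, and those in SAMD9L are 0.148%. IFI6 had a log2 ratio of -0.60 (limits -0.76 to -0.43) and IFI44, a cytoplasmic protein of uncertain role, had -0.71 (limits -1.15 to -0.29) on 121 and 77 counts. In IFI6, 18.9% of the windows are shared with LINC02574, which overlaps it on the same strand.

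Among the ligases and ADP-ribosyltransferases, HERC5, HERC6, PARP14, DTX3L and PARP9 had log2 ratios below 0 for RT + shHDAC6 against RT, short of 2-fold. HERC5, the main ligase for ISG15 in human cells, had 210, 201 and 131 counts in the 3 libraries, a log2 ratio of -0.68 (limits -1.01 to -0.36) for RT + shHDAC6 against RT. Its neighbour HERC6 had 619, 587 and 419 counts and a log2 ratio of -0.55 (limits -0.73 to -0.37). PARP14, DTX3L and PARP9, which lie together on chromosome 3, had log2 ratios of -0.53 (limits -0.60 to -0.45), -0.43 (limits -0.53 to -0.33) and -0.33 (limits -0.49 to -0.18). USP18, the protease that removes ISG15 and damps receptor signalling, had the opposite sign, with 268, 196 and 275 counts and a log2 ratio of 0.43 (limits 0.16 to 0.70). TRIM22, a ubiquitin ligase, also lay above 0, with 195, 79 and 113 counts and a log2 ratio of 0.45 (limits 0.03 to 0.89). Of the windows of USP18, 14.7% occur in USP41. ISG15 itself had a log2 ratio of 0.15 (limits -0.17 to 0.47).

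The RNA sensors and the transcription factors had no call in this comparison. OAS3 had a log2 ratio of -0.33 (limits -0.38 to -0.27), EIF2AK2 of -0.08 (limits -0.13 to -0.02) and IFIH1 of -0.46 (limits -0.65 to -0.26). OASL, at 56 RT counts and 35 with the shRNA, had -0.74 (limits -1.39 to -0.11). STAT2 had -0.17 (limits -0.25 to -0.09) and IRF1 had -0.24 (limits -0.39 to -0.09). The intervals of IRF7 and IRF9 crossed 0. The 4 IFIT genes had log2 ratios from -0.25 to 0.13, and 3 of the 4 intervals included 0. For MX1 the interval was -0.11 to 0.53 and for RSAD2, which makes a chain-terminating nucleotide, it was -0.68 to 0.71. The ratios of MX1 and RSAD2 were thus not detectably different from 0 at this depth.

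For RT + shHDAC6 against Ctrl, in which both the radiation and the shRNA differ, 5 ISGs were called lower (10.9%, against 7.87% of all genes) and 1 was called higher (2.17%, against 4.22%). The lower genes were GBP1 (log2 ratio -2.01, limits -2.29 to -1.75), GBP2 (-1.98, limits -2.26 to -1.70), OASL (-1.96, limits -2.52 to -1.43), SAMD9 (-1.64, limits -1.80 to -1.48) and IFIT1 (-1.13, limits -1.35 to -0.91). The ISG called higher was IFITM2 (1.03, limits 0.89 to 1.16), which lost the call under library totals and under upper quartile scaling. GBP3 stood at -0.06 (limits -0.21 to 0.08), so that its level in RT + shHDAC6 was not detectably different from that in Ctrl. The median log2 ratio of the ISGs was -0.27 and that of all genes -0.05. Above 0 lay 10 ISGs and below it 36, beside 9504 and 11023 of the 20527 genes tested. At 1.5-fold, 12 were called lower (26.1%, against 13.7% of all genes) and 1 higher (2.17%, against 11.2%).

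The study's own rule, a NOISeq probability over 0.4, was re-implemented here. The re-implementation called many more genes of every kind than the main rule, since it asks for no minimum fold. Its numbers of called genes differ from those the study reports, and the reason was not tested. The shares below are therefore those of the re-implementation and not of the study's own run. By the re-implementation, 10 ISGs were called higher and 19 lower for RT against Ctrl (21.7% and 41.3%), against 27.7% and 26.9% of all genes. For RT + shHDAC6 against RT, 3 were called higher and 18 lower (6.52% and 39.1%), against 16.5% and 20.8%. For RT + shHDAC6 against Ctrl, 4 were called higher and 18 lower (8.70% and 39.1%), against 27.1% and 26.6%. USP18 was the ISG called higher for RT + shHDAC6 against RT by the re-implementation beside IFITM1 and IFITM2.

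The ratios of the ISGs differed with the number of counts behind them. In 4 bands of mean count, chosen after the values were seen, the 12 ISGs under 100 counts all lay below 0 for RT against Ctrl, with a median of -0.76. Of all genes in that band 68.8% lay below 0, with a median of -0.39. The 13 ISGs from 100 to 300 counts had a median of -0.49 (all genes -0.095), the 13 from 300 to 1000 counts one of 0.07 (all genes 0.05), and the 8 with 1000 or more one of 0.19 (all genes 0.12). For RT + shHDAC6 against RT, the medians of the ISGs in the same 4 bands were 0.27, 0.15, -0.46 and -0.16, whereas those of all genes lay between -0.024 and 0.063. All 8 ISGs with 1000 or more counts and 12 of the 13 from 300 to 1000 counts lay below 0 there, and 11 of the 12 under 100 counts lay above it. Of all genes in these bands, 54.9%, 52.8% and 47.0% lay below 0, in the same order. The ISG medians of the 2 bands under 300 counts thus lay below 0 in the first comparison and above 0 in the second. The RT library enters both comparisons, and its part in these values was not tested.

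**Figure D3:**
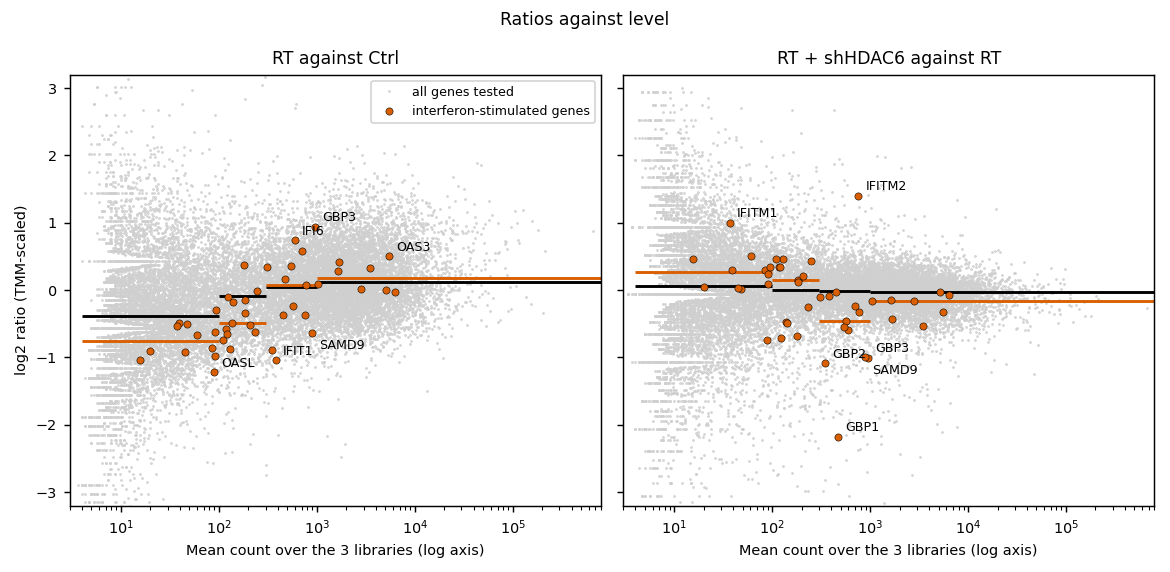
Log2 ratio of each gene tested (grey) and of the 46 ISGs (orange) against the mean count over the 3 libraries (log axis), for RT against Ctrl and RT + shHDAC6 against RT, with the median of each count band as a black line for all genes and an orange line for the ISGs. Genes with a log2 ratio past 3.2 in size are outside the axes, and the orange line runs from -0.76 to 0.19 on the left and from 0.27 to -0.16 on the right.

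Marker genes of other cell types were present at low counts and also differed between the libraries. The 4 leukocyte markers (PTPRC, CD3E, CD14 and LYZ), each with at least 10 counts in a library, summed to 364, 189 and 187 counts in the 3 libraries, or 8.03, 5.63 and 5.34 CPM after TMM scaling. CD3E had the fewest, with 15, 14 and 17 counts. The 3 endothelial markers (PECAM1, VWF and CDH5) summed to 1049, 486 and 674 counts, or 23.1, 14.5 and 19.2 CPM. Both sums were lower in RT than in Ctrl, as were 32 of the 46 ISGs, and no marker of either list was at 0 in all libraries. Their part in the ISG ratios was not tested. KRT7, a keratin of simple and transitional epithelia, had 3533, 3854 and 597 counts, and thus fell between RT and RT + shHDAC6 along with the GBP genes (log2 ratio -2.75). The other 4 genes of the epithelial list had ratios above 0 in that comparison, from 0.05 for KRT18 to 0.51 for EPCAM.

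The genes upstream of the ISGs were read from lists of pathway members. Of 22 interferon genes, 1 had at least 10 counts in a library: IFNE, an epithelial type I interferon, with 37, 40 and 20 counts in the 3 libraries. It was called lower for RT + shHDAC6 against RT (log2 ratio -1.06, limits -1.91 to -0.25), beside 3.54% of all genes tested. IFNB1, IFNG and the 13 interferon alpha genes had 0 counts in every library, which allows up to 0.0718, 0.0834 and 0.0847 CPM by the limit of 3 counts. IFNL2 had 1, 0 and 1 counts and IFNL3 had 0, 0 and 1. Interferon alpha genes are near-identical, so reads matching several of them could have been dropped by the counting.

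Of the 9 receptor and kinase genes, 8 were tested and none was called in any of the 3 comparisons. IFNAR1, a subunit of the type I receptor, had 3084, 3424 and 2859 counts, a log2 ratio of 0.59 (limits 0.52 to 0.66) for RT against Ctrl and of -0.32 (limits -0.39 to -0.25) for RT + shHDAC6 against RT. IFNGR1, a subunit of the interferon gamma receptor, had 1345, 1676 and 1668 counts (0.75, limits 0.65 to 0.86, and -0.07, limits -0.17 to 0.03). The receptor subunit of type III interferons, IFNLR1, had 8, 4 and 3 counts.

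Of the 14 genes of nucleic acid sensing, 13 were tested. TICAM1, the adaptor of TLR3, was the 1 called higher for RT + shHDAC6 against RT, beside 2.58% of all genes tested. It had 633, 397 and 841 counts in the 3 libraries (log2 ratio 1.02, limits 0.847 to 1.197). CGAS, the cytoplasmic DNA sensor, had 1357, 1466 and 1536 counts, with a log2 ratio of 0.55 (limits 0.44 to 0.65) for RT against Ctrl. STING1, its adaptor, had 169, 108 and 83 counts. RIGI had 2320, 1156 and 1222 counts (log2 ratio -0.57, limits -0.67 to -0.47, for RT against Ctrl). TREX1, a DNA exonuclease, was listed at 0 in every library, and 100% of its exon bases are shared on the same strand with ATRIP, so its reads could have been dropped by the counting. Of the 7 feedback regulators, SOCS3, an inhibitor of JAK signalling, was called higher for RT + shHDAC6 against Ctrl, beside 4.22% of all genes tested. SOCS3 had 617, 847 and 1120 counts (log2 ratio 1.23, limits 1.09 to 1.38).

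A second list of 47 interferon-stimulated genes outside the 46 gave 44 tested genes. For RT against Ctrl they had a median of 0.00 on the log2 scale, with 22 genes above 0 and 22 below, and with the shRNA against RT alone a median of -0.04. For RT against Ctrl, LGALS3BP and TOR1B were called higher and EPSTI1 and SLFN5 lower, that is, 2 of 44 in each direction, beside 4.15% and 6.07% of all genes. LGALS3BP, a secreted galectin-binding glycoprotein, had 3187, 6033 and 2137 counts in the 3 libraries, and was the 1 gene of the list called for RT + shHDAC6 against RT (log2 ratio -1.56, limits -1.63 to -1.49), beside 3.54% of all genes called lower there. GBP5 was the 1 gene called for RT + shHDAC6 against Ctrl, beside 7.87% of all genes. The level of LGALS3BP was highest in RT, as was that of GBP3 and IFI6.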

How the data were processed

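RNA of T24 cells was sequenced in 3 conditions with 1 library each, and conditions were taken from the sample labels. Per the labels and the study's methods, cutadapt removed adapters, STAR (2.6.1a in the submitters' processing notes) mapped reads to GRCh38, and featureCounts assigned them to the genes of GENCODE release 28. The values the authors deposited are whole-number counts per gene without normalisation. How strand and multiply matching reads were treated is not given in the sources used here, and genes that overlap or resemble each other could therefore share counts. The library kit differs between the labels, which name a TruSeq Stranded mRNA kit, and the study's methods, which name another.

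Identifiers were matched to symbols, positions and merged exon lengths of GENCODE release 44 (57754 of 58381). Counts were scaled by TMM over the 3 libraries in Python 3.11.15 with numpy 2.4.6, which was checked against edgeR 4.0.16. A count of 0 was set to 0.5, and intervals came from scipy 1.17.1. Genes with at least 10 counts in at least 1 library entered the shares of all genes. A share or level of 0 counts was given the limit of 3 counts. The study's rule was a NOISeq probability over 0.4 on TMM-scaled values. Here that procedure was re-implemented (5 samples of 20% of the depth per library) as an alternative to the 2-fold rule, which was tested on simulated data. The 1.5-fold rule, other scalings, other filters on low counts and zeros set to 1 were also tried.

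The 46 ISGs and the pathway and marker lists were chosen with earlier results of these data known, and 2 genes of these lists are not reported here. Every ISG called in a comparison or with at least 1000 counts in a library was given with its counts in every library, and the others by role. Promoter windows were taken from RefSeq tables and searched for exact motif matches.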

Additional observations from a re-analysis of the deposited data

How the results depend on the processing

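No paired analysis was possible because each condition had 1 library. For the same reason no library could be left out, and counting intervals do not cover the spread between cultures. Scaling by library totals gave 9 ISGs lower in RT than in Ctrl and, for RT + shHDAC6 against Ctrl, 0 higher and 8 lower, since it moved the median of all genes to -0.28 and -0.19. The median of ratios gave for RT against Ctrl 1 higher and 1 lower, and 1 higher for RT + shHDAC6 against RT. Upper quartile scaling gave 0 higher for RT + shHDAC6 against Ctrl. The shares of all genes called under these other scalings are not given here. GBP3, SAMD9 and IFITM1 lay so near 2-fold that the scaling decided their calls for RT + shHDAC6 against RT, whereas GBP1, GBP2 and IFITM2 were called there under each of the 4 scalings. By construction, lower thresholds called more ISGs. At 1.5-fold there were 2 higher and 13 lower for RT against Ctrl, 8 lower for RT + shHDAC6 against RT and 12 lower for RT + shHDAC6 against Ctrl. The re-implemented NOISeq rule gave 10 higher and 19 lower, 18 lower, and 4 higher and 18 lower in the same order. With at least 100 counts in a library, IFITM1 was not tested and 1 ISG was higher for RT + shHDAC6 against RT, while the ISG median moved from -0.36 to -0.18 for RT against Ctrl and from -0.08 to -0.16 for RT + shHDAC6 against RT. Setting zeros to 1 or leaving out the filter on low counts moved none of the counts of called ISGs or their medians past their limits. Single ISGs kept the sign of their log2 ratio under every scaling in 39 of 46 for RT against Ctrl, 43 for RT + shHDAC6 against RT and 41 for RT + shHDAC6 against Ctrl. The log2 ratio of HDAC6 for RT + shHDAC6 against RT lay between -0.21 and -0.11 under the 4 scalings, a comparison chosen after seeing the data. For CXCL11, CMPK2 and IFITM1, with 9 to 22 counts in RT, the depth limits what can be told.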
